A study of Mus musculus with 103 samples.

Results

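The genes described here encode the proteins of the cytoplasmic ribosome. They were taken by symbol as Rpsa, the stalk genes Rplp0, Rplp1 and Rplp2, and every symbol that begins with Rpl or Rps followed by a digit. Kinases of ribosomal protein S6 (10 symbols) and pseudogene symbols (6) were left out. The rule used no measured value and gave 86 of the 23339 genes of the larger RNA-seq table, and the same 86 of the 20282 genes of the run-on tables. They comprised 43 genes of the large subunit, 31 of the small subunit, 3 of the stalk and 8 paralogs, as well as Rps19bp1, which encodes a protein that binds Rps19 and is no part of the ribosome. Rps4y2, kept by its symbol and counted with the paralogs, is listed by RefSeq as the transcribed pseudogene Rps4l.

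A cytoplasmic ribosome joins a small subunit, which holds the messenger RNA and reads its codons, to a large subunit, which forms the peptide bonds. Growing cells devote a large share of transcription and translation to its proteins, and resting cells devote less. Most mammalian ribosomal protein mRNAs start with a C inside a run of pyrimidines, the 5′ terminal oligopyrimidine (TOP) motif, through which mTOR controls their translation. Their genes are short, and the genome carries many intronless pseudogene copies of them.

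The RNA-seq and run-on samples were mouse embryonic fibroblasts from C57BL/6 mice at embryonic day 13.5, rested in culture for 10 d. The study removed CTCF, a DNA-binding protein that positions cohesin; Smc3, a core cohesin subunit; or Wapl, which releases cohesin from DNA. RNA-seq covered 27 libraries of 12 groups in the larger table, and the replicates of a group are numbered clones. Wild-type clones were untreated or exposed for 4 h to an adenovirus that expresses Cre recombinase (Adeno-Cre), with 2 libraries in each group. Ctcf fl/fl clones were treated in the same way, also 2 and 2. Rosa26 CreER/+ clones without a floxed gene, which express a Cre recombinase activated by the ligand, were untreated or given 4-hydroxytamoxifen for 2 to 3 d, again 2 and 2. Smc3 cells carried Rosa26 CreER/+ and were Smc3 fl/fl in clone 1 and Smc3 fl/- in clones 2 to 4, with 4 untreated and 4 hydroxytamoxifen-treated libraries. Wapl cells were Rosa26 CreER/+ and Wapl fl/- in both clones, so that their untreated cells already lacked an allele, with 2 and 2 libraries. Cells floxed for Ctcf and Wapl on both alleles gave 2 untreated libraries (clones 3 and 4) and 1 Adeno-Cre library (clone 4). Run-on sequencing (GRO-seq) labels RNA at engaged polymerases. It covered wild-type and Rosa26 CreER/+ cells, each untreated or treated as above, and the cells floxed for both genes. The latter were untreated, exposed to Adeno-Cre, exposed to Adeno-Cre and then to the elongation inhibitor DRB for 3.5 h, or given the same DRB exposure followed by 1 d without it.

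Between 8.5 M and 41.1 M reads fell in genes in each RNA library. Ctcf RNA went from 11.6 to 13.2 RPKM (reads per kilobase of transcript, scaled to library size) in untreated Ctcf floxed libraries to 4.04 to 4.23 RPKM after Adeno-Cre, and Wapl RNA (listed as Wapal) was 1.48 to 1.80 RPKM in untreated and 0.78 to 0.91 RPKM in treated Wapl floxed libraries. Smc3 RNA went against the labels: it was 7.62 to 10.5 RPKM in untreated and 10.9 to 13.2 RPKM in treated Smc3 floxed libraries. That RPKM covers the whole gene, and the sources used here do not give the floxed exons. The 11 fibroblast markers summed to between 10254 and 18538 RPKM in every library.

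Promoter sequences from RefSeq (build GRCm38.p6) were matched for 65 of the 86 symbols, as windows of 250 bases before to 50 bases after the annotated start. A run of at least 8 C or T within 20 bases of the start was found in 28 of these 65 promoters (43.1%), against 15.9% of the 27025 promoters in the table. The letters CCGGAAG, the core of the site bound by Ets and GABP factors, were found on either strand in 38.5% of the member promoters and 9.12% of all. AANATGGC, the YY1 core, stood in 18.5% and 6.23%, and GGGCGG, the core of a GC box, in 61.5% and 35.9%; the counts of the 4 searches overlap. A match of letters is no evidence of binding. The following windows of 30 bases are centred on the annotated start and were picked among members named below, to show starts with and without a run of pyrimidines across them. Capitals mark the longest run of C or T in each window, and the annotated start is the sixteenth letter.
Rps6: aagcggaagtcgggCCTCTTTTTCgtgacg
Rplp2: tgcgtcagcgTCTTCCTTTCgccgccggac
Rps27: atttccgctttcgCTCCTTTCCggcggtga
Rplp0: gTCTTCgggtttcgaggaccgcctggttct
Rpl12: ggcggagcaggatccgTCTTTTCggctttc
Rpl34: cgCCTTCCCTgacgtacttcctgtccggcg
Rpl41: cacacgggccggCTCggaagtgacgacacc
The windows lie at chr4:86857353-86857382 (minus strand) for Rps6, chr7:141447636-141447665 (plus) for Rplp2, chr3:90213634-90213663 (minus) for Rps27, chr5:115559452-115559481 (plus) for Rplp0, chr2:32961697-32961726 (plus) for Rpl12, chr3:130730384-130730413 (minus) for Rpl34 and chr10:128549154-128549183 (minus) for Rpl41. In Rps6, Rplp2 and Rps27 the annotated start was a C and the run of 9 or 10 pyrimidines spanned it. In Rplp0, Rpl12, Rpl34 and Rpl41 the longest run lay to one side of the annotated start, and the annotated first base was G or A. Whether transcripts start at the annotated base in these cells was not tested.

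Levels differed widely among the members. Averaged over the 27 libraries, 21 members had at least 100 RPKM, 28 had 10 to 100, 27 had 1 to 10 and 10 had less than 1. Among the highest were Rplp1 (2908 RPKM), an acidic protein of the stalk that contacts elongation factors, Rpl8 (999.6 RPKM), which lies at the peptidyl transferase centre, Rps26 (816 RPKM) and Rps15 (635 RPKM). Rpl17, Rpl9, Rpl23a, Rpl22l1 and Rps23, with means of 0.46 to 0.78 RPKM, were the lowest of those tested. The genes Rpl5, Rpl26, Rps13, Rpl3l and Rpl10l never reached 1 RPKM in 2 libraries and were not tested, which left 81 of the 86. Rpl5, a core subunit that also carries 5S RNA into the ribosome, reached at most 0.24 RPKM and Rpl26 at most 0.085. Most proteins of a ribosome are present in a single copy, yet the RPKM of core subunits spanned orders of magnitude. How the counting treated reads that also match pseudogenes is not given in the sources used here. The RPKM of such genes are therefore uncertain as levels, and so is any order of levels between genes given below, paralog pairs included. The tests compare values of the same gene.

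**Figure D1:**
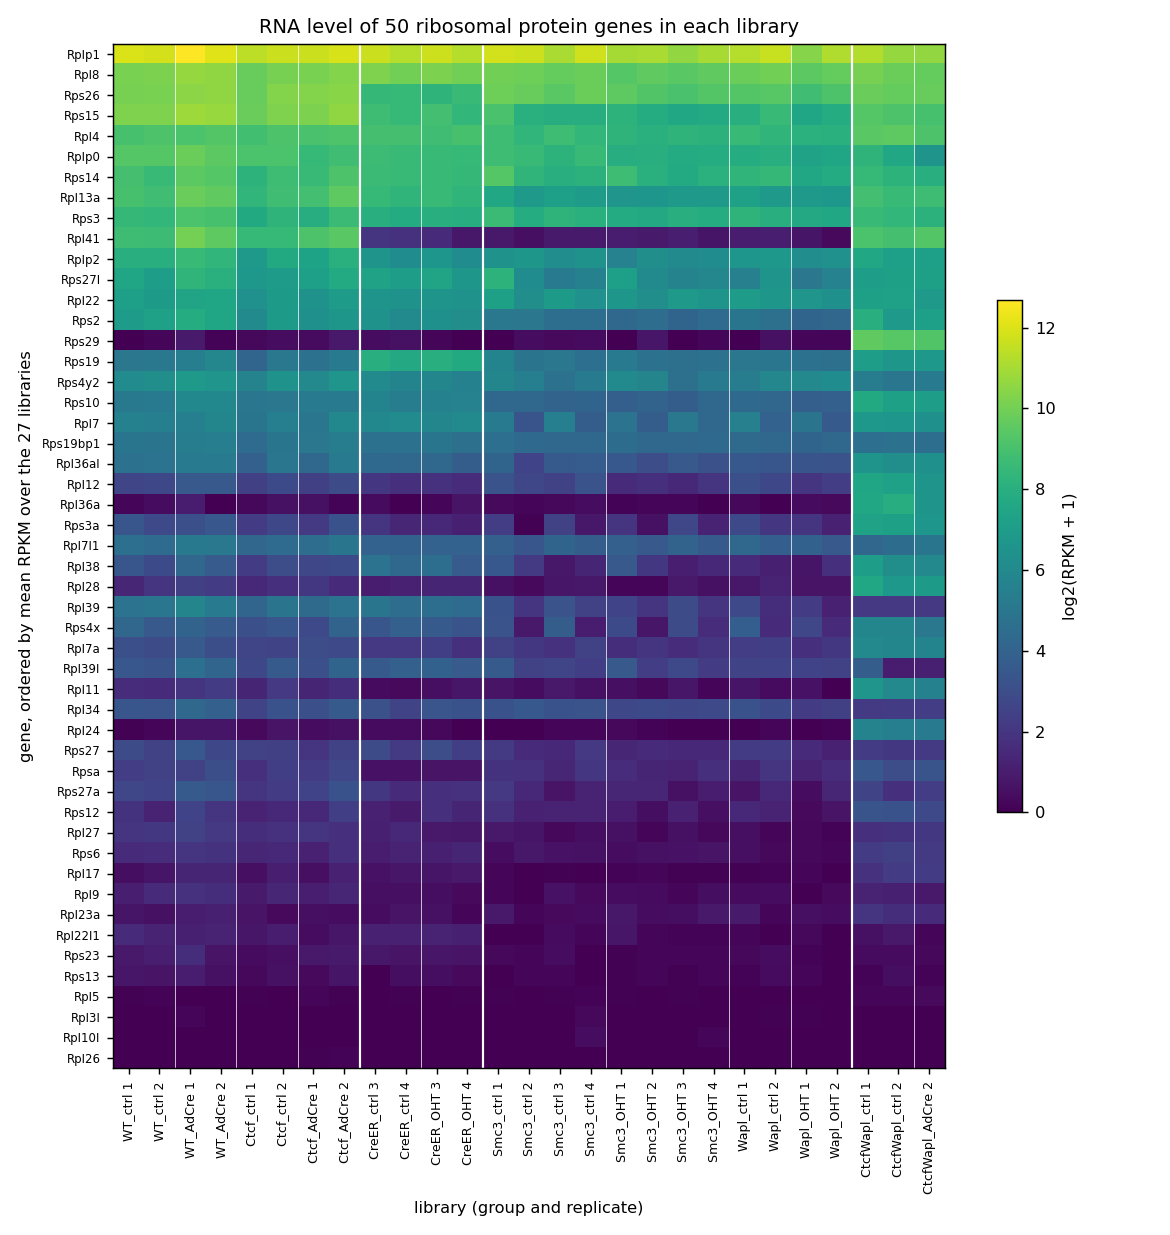
Level of the 50 ribosomal protein genes named in the text in the 27 RNA-seq libraries, coloured by log2(RPKM + 1), with genes in rows from the highest to the lowest mean RPKM and libraries in columns by group and replicate. Rpl41 and Rps29 change by orders of magnitude between sets of libraries, whereas Rplp1 and Rpl8 are high in every library.

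Some members separated sets of libraries rather than treatments. Rpl41, the shortest ribosomal protein, had 357 to 1043 RPKM in the 8 wild-type and Ctcf floxed libraries and 487 to 623 RPKM in the 3 libraries floxed for both Ctcf and Wapl. In the Cre-ER, Smc3 and Wapl libraries it had 0.27 to 2.80 RPKM. Rps29 had 613 to 770 RPKM in the 3 libraries floxed for both genes and at most 0.91 RPKM in the other 24. Likewise Rpl11, Rpl24, Rpl28, Rpl36a and Rps3a were at least 10-fold higher in each of these 3 libraries than in any other. Rps19, the gene most often mutated in human Diamond-Blackfan anaemia, was highest in the Cre-ER libraries, at 202 to 250 RPKM against 16.8 to 57.8 RPKM in the wild-type and Ctcf floxed ones. For 20 members the medians of the 4 sets lay within 3-fold of each other. Neither the 10-fold nor the 3-fold rule was applied to all genes. These counts therefore do not set the members apart from other genes. Genotype and library set cannot be told apart here, so treated and untreated libraries are compared only within a genotype.

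The paralogs stood below or above their partners by pair and, in some pairs, by library. Rpl22, a large-subunit protein, had 75.5 to 174 RPKM over the 27 libraries, whereas its paralog Rpl22l1 had 0 to 1.85 RPKM. Rpl7 and its paralog Rpl7l1 had means of 43.7 and 18 RPKM. Rpl39 had a median of 27.8 RPKM in the wild-type and Ctcf floxed libraries against 10.5 RPKM for Rpl39l, but 4.21 against 4.86 RPKM in the 12 Smc3 and Wapl libraries. Rps27, with a mean of 3.83 RPKM, was below Rps27l, with 128 RPKM. Rps4x had a mean of 12.6 RPKM against 57.3 RPKM for Rps4y2, but was the higher in both untreated libraries floxed for Ctcf and Wapl (54.8 and 54.2 against 40.0 and 30.9 RPKM). Rpl36a had at most 1.05 RPKM in 24 libraries, in which Rpl36al had 4.78 to 37.1 RPKM. Rpl3l, a paralog of muscle, and Rpl10l, a paralog of testis, stayed below 0.33 RPKM, which the filter on low values left out.

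The comparison of treated with untreated Smc3 floxed cells asked what changes when cohesin is removed. Ribosomal protein RNA was lower in the libraries labelled as treated, although Smc3 RNA itself was not lower in them. The summed RPKM of all 86 members went from 13197 to 7950 in clone 1, from 9506 to 7160 in clone 2, from 8554 to 6743 in clone 3 and from 9844 to 7268 in clone 4. These are changes of -39.8%, -24.7%, -21.2% and -26.2%, and in each clone the treated library was below its untreated partner. Such sums weigh the highest members most. Rplp1 alone went from 3620 to 2012, 3375 to 2147, 2144 to 1571 and 3446 to 2076 RPKM in clones 1 to 4. The untreated clone 1 library was the shallowest of all, with 8.5 M reads, and had the highest sum of the 4 untreated libraries. Of the 81 tested members, 8 passed the threshold of 0.05 lower and 0 higher (limma on log2(RPKM + 1), Benjamini-Hochberg adjusted over 12604 genes). Over all genes tested, 5.6% were called lower and 9.37% higher. The median log2 difference was -0.20 over the members and 0.07 over all genes. With the clone as a block, 28 members were called lower and 0 higher. Of the 12604 genes, 4616 were then called, 1591 of them lower (12.6% of all genes). The members lower in all 4 clones numbered 33 (40.7%), against 17.3% of all genes. Higher in all 4 were 0 members, against 3918 of the 12604 genes.

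The stalk genes, whose products recruit elongation factors to the large subunit, were among those called. Rplp0, which anchors the stalk, had 422, 373, 297 and 376 RPKM in the untreated and 234, 250, 218 and 230 RPKM in the treated libraries of clones 1 to 4. The groups did not overlap, and the log2 difference was -0.64 ± 0.14 (SE, n = 4 and 4, limma adjusted p = 0.00316). Rplp1 had 3620, 3375, 2144 and 3446 RPKM untreated and 2012, 2147, 1571 and 2076 RPKM treated, a difference of -0.67 ± 0.21 (limma adjusted p = 0.0389). For Rplp1 the groups touched, because untreated clone 3 lay just below treated clone 2. Rplp2, the third stalk gene, was lower in 4 of 4 clones, with group means of 88.9 and 65.0 RPKM, but missed the threshold (limma adjusted p = 0.14, and 0.00543 with the clone block).

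Rpl12, which forms the base of the stalk, gave the smallest p of all members. It had 8.42, 5.44, 4.76 and 8.60 RPKM in the untreated and 1.86, 2.32, 1.67 and 2.72 RPKM in the treated libraries, or 45 to 99 reads against 22 to 37. The groups were well separated, with a difference of -1.29 ± 0.18 (limma adjusted p = 9.52e-05). In the large subunit, Rpl4, which lines the exit tunnel, had 428, 330, 429 and 335 RPKM untreated and 304, 261, 303 and 286 RPKM treated (-0.39 ± 0.11, limma adjusted p = 0.0251). Rpl8 had 1027, 950, 810 and 915 RPKM untreated and 657, 760, 702 and 772 RPKM treated (-0.35 ± 0.11, limma adjusted p = 0.0419). Neither gene's groups overlapped. Rpl34, a small protein of the same subunit, had 8.18, 10.2, 8.13 and 8.43 RPKM untreated and 5.76, 6.18, 5.83 and 5.95 RPKM treated, again without overlap (-0.48 ± 0.15, limma adjusted p = 0.0338).

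In the Smc3 comparison, leaving out single libraries gave 3 to 11 called members (5 without untreated clone 1, treated clone 2 or treated clone 3, 4 without untreated clone 4 and 3 without treated clone 4), and without both libraries of clone 1 there were 4. The median over members was -0.08 without the untreated clone 1 library and -0.33 without its treated partner. No member was called against the hydroxytamoxifen control, as given below.

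The named members below the threshold differed in direction. Rps3, Rps14, Rpl13a, Rps26, Rps15 and Rpsa were lower in 4 of 4 clones with differences of -0.42 to -0.27. Rps6, the substrate of the S6 kinases, differed by -0.04, Rpl22 by -0.10 and Rpl7 by 0.04, each lower in 2 of 4 clones. The 6 tested paralogs had a median of -0.04, against -0.17 for the 41 large-subunit, -0.28 for the 30 small-subunit and -0.64 for the 3 stalk genes. Rps27l, a paralog of Rps27 induced by p53, had 289, 71.4, 38.2 and 45.9 RPKM untreated and 144, 66.7, 50 and 56.9 RPKM treated, so its spread came mostly from clone 1.

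**Figure D2:**
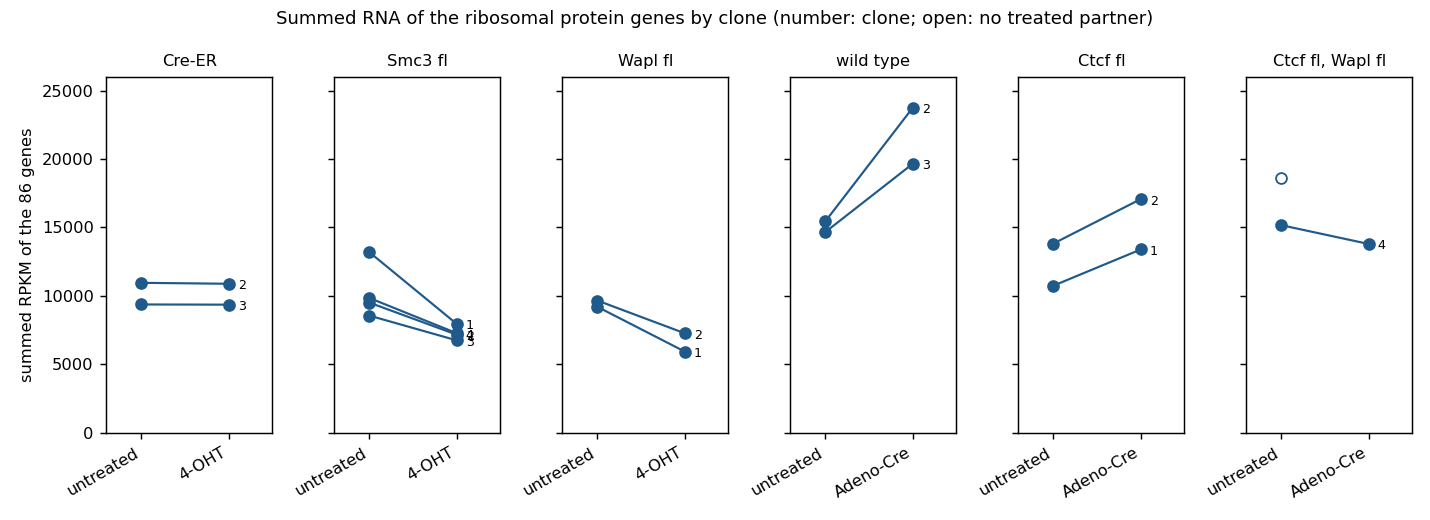
Summed RPKM of the 86 ribosomal protein genes in the untreated and treated library of each clone, joined by a line and numbered by clone, for each genotype; the open point is a library with no treated partner. The 6 Smc3 and Wapl pairs slope down, both Cre-ER pairs are nearly level, the 4 wild-type and Ctcf pairs with Adeno-Cre slope up and the 1 pair of Ctcf and Wapl floxed cells slopes down. Rplp1 is the largest single term of each sum.

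Treated Wapl floxed cells showed lower values for most members. The sum went from 9199 to 5925 RPKM (-35.6%) in clone 1 and from 9657 to 7262 RPKM (-24.8%) in clone 2. No member passed the threshold (limma, 0 of 81), where 0.928% of all genes were called lower and 1.5% higher. The median log2 difference was -0.35 over members and -0.01 over all genes, and 65 members (80.2%) were lower in both clones, against 38.8% of all genes. With the clone block 23 members were called lower and 1 higher. Of the 12604 genes, 1839 were then called, 879 of them lower (6.97% of all genes).

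The smallest p-values among the members in Wapl cells belonged to Rpl34 and Rpl12. Rpl34 had 8.12 and 6.12 RPKM untreated and 3.59 and 4.33 RPKM treated (-0.70 ± 0.21, limma adjusted p = 0.0913, and 0.0106 with the block). Rpl12 had 7.45 and 5.74 RPKM untreated and 2.71 and 3.88 RPKM treated (-0.83 ± 0.25, limma adjusted p = 0.0967, and 0.0155 with the block). Both were lower in each clone without overlap. Rplp0 had 228 and 244 RPKM untreated and 156 and 180 RPKM treated, and Rplp1 2447 and 3137 against 1335 and 2313 RPKM. The member called higher with the block was Rps4y2, an Rps4x-like gene that RefSeq lists as the transcribed pseudogene Rps4l. It had 38.8 and 56.6 RPKM untreated and 62.7 and 69.7 RPKM treated (0.49 ± 0.37, limma adjusted p = 0.629, and 0.0252 with the block).

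Hydroxytamoxifen in cells without a floxed gene moved the sums by less than 1%. They went from 10952 to 10883 RPKM (-0.6%) and from 9369 to 9354 RPKM (-0.2%). No member was called, and no gene of the 12604 was (0.0% higher and 0.0% lower in limma); 2 members, Rpl41 and Rpl27, had an unadjusted p under 0.05. Both had few reads in these libraries, and Rpl41 went from 2.80 and 2.47 to 1.96 and 0.74 RPKM. The members' median was -0.01. In both clones 23 members were higher and 22 (27.2%) lower, against 2509 of the 12604 genes higher and 19.3% lower.

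Taking the Cre-ER difference away from that of Smc3 cells called 0 members in limma, against 1.23% of all genes called in either direction. The smallest p was that of Rpl12, with a net difference of -1.17 ± 0.31 (limma adjusted p = 0.0755). With the clone block the net comparison called 11 members lower and 1 higher, against 10.7% of all genes. That block pairs the Cre-ER libraries by clone, although their deviations from the group mean correlated at -0.20. Crossing these clones gave fewer net calls for Smc3 and for Wapl, as listed below. The member called higher was Rpl41, at a group mean of 0.91 RPKM in treated and 0.74 RPKM in untreated Smc3 cells. Net of the control, Wapl cells also gave 0 called members, against 0.143% of all genes. With the block 3 members were called lower, against 2.48% of all genes. Rpl34 had the smallest p in the Wapl net comparison (-1.09 ± 0.30, limma adjusted p = 0.236). The Smc3 and Wapl net comparisons share the 4 Cre-ER libraries.

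**Figure D3:**
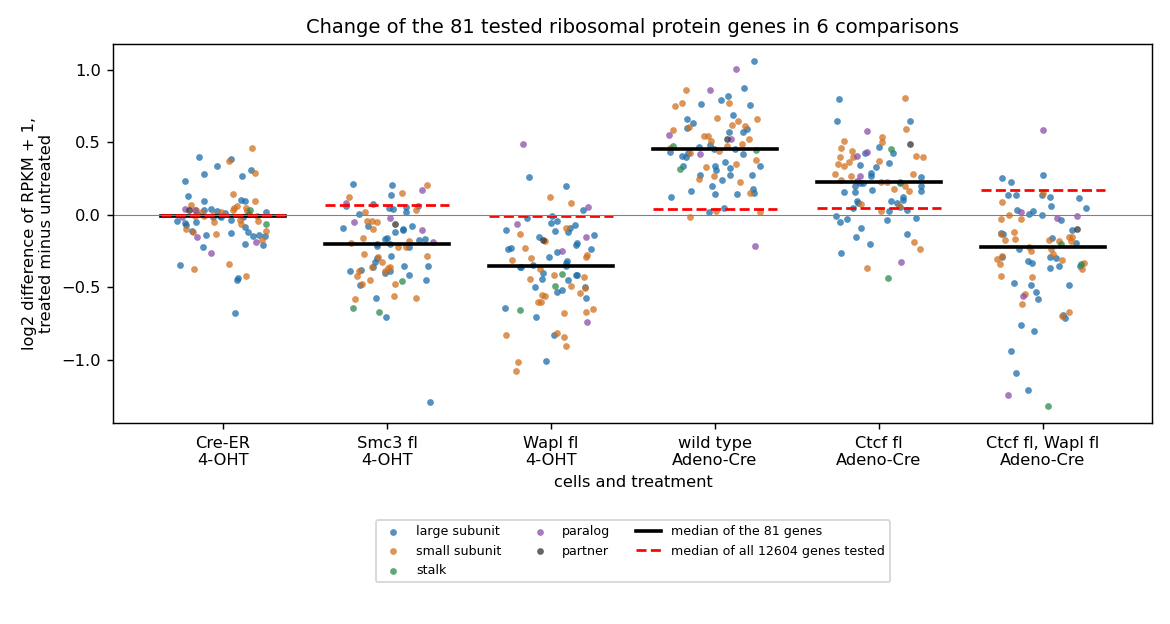
Log2 difference, treated minus untreated, on log2(RPKM + 1) for each tested ribosomal protein gene in the 6 comparisons. Points are genes coloured by role, black lines the median of the 81 genes and dashed red lines the median of all 12604 genes tested. The members lie mostly below 0 in the Smc3 and Wapl columns and mostly above 0 in the wild-type and Ctcf Adeno-Cre columns.

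Adeno-Cre in wild-type cells, the control for the Ctcf deletions, went with higher ribosomal protein RNA. The sum went from 15450 to 23759 RPKM (53.8%) in clone 2 and from 14667 to 19660 RPKM (34.0%) in clone 3. Rplp1 alone went from 3989 to 6567 RPKM and from 3776 to 4286 RPKM in these clones. The test called 3 members higher and 0 lower, against 2.7% of all genes higher and 0.54% lower. The members' median log2 difference was 0.45, against 0.04 over all genes, and 69 members (85.2%) were higher in both clones, against 43.2% of all genes. With the clone block 33 members were called higher and 0 lower. Of the 12604 genes, 2899 were then called, 1987 of them higher (15.8% of all genes).

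Rpl41 had 432 and 413 RPKM untreated and 1043 and 745 RPKM after Adeno-Cre in wild-type cells, a difference of 1.06 ± 0.21 (limma adjusted p = 0.0123). Rps10, a small-subunit protein near the mRNA entry, had 33.9 and 34.6 RPKM untreated and 59.7 and 58.6 RPKM treated (0.77 ± 0.17, limma adjusted p = 0.0177). In both genes the treated libraries lay well above the untreated ones. Rpl24, which bridges the subunits, was called at 1 and 2 reads untreated against 11 and 11 reads treated. Short transcripts in general were higher after Adeno-Cre: other genes under 1000 bases had a median of 0.45, those of 1000 to 2000 bases 0.24 and those over 4000 bases -0.17. Once the trend with transcript length was removed, the members' median was -0.04 and 0 members were called, or 2 with the clone block. Without either untreated library, or without the Adeno-Cre library of clone 2, 0 members were called. Interferon-responsive genes also rose in these libraries (10 of 15 tested, median 2.46), and whether that had a part in the result was not tested.

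Ctcf floxed cells given Adeno-Cre also had higher sums than their untreated partners. These went from 10742 to 13392 RPKM (24.7%) and from 13822 to 17078 RPKM (23.6%). Within them Rplp1 went from 2778 to 3231 RPKM and from 3240 to 3805 RPKM. One gene, Rpl41, was called higher and 0 were called lower, against 5.04% of all genes higher and 2.63% lower. It had 360 and 357 RPKM untreated and 561 and 698 RPKM treated (0.80 ± 0.21, limma adjusted p = 0.0260). The call was lost with the length trend removed (0.51), with a pseudocount of 0.1, and without untreated clone 1, untreated clone 2 or treated clone 2. The median was 0.23 over members, 0.05 over all genes and 0.19 over other genes under 1000 bases, and it became 0.00 once the length trend was removed. It also turned on single libraries: it was 0.02 without untreated clone 1, 0.01 without treated clone 2, 0.44 without treated clone 1 and 0.42 without untreated clone 2. In both clones 51 members (63.0%) were higher, against 43.7% of all genes. With the clone block, 12 members were called higher and 1, Rplp0, was called lower. Of the 12604 genes, 3155 were then called, 1977 of them higher (15.7% of all genes).

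Rplp0 had the opposite sign to most members in Ctcf floxed cells. Its values were 535 and 553 RPKM untreated and 363 and 444 RPKM after Adeno-Cre, without overlap (-0.44 ± 0.19, limma adjusted p = 0.196, and 0.0181 with the block). In wild-type cells it had 654 and 639 RPKM untreated and 906 and 719 RPKM treated (0.32 ± 0.19). The difference between these differences was -0.76 ± 0.27 (limma adjusted p = 0.28, and 0.0208 with the block). Net of the wild-type response, 0 members were called in Ctcf floxed cells, against 1.46% of all genes. With the block 2 members were called lower, against 6.95% of all genes.

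Cells floxed for both Ctcf and Wapl allow a comparison of 1 treated library with 2 untreated ones, in which the lone treated library is assumed to vary like the other groups. Within clone 4 the sum went from 15167 to 13792 RPKM (-9.1%), and the untreated clone 3 library had 18655 RPKM. Lower calls were made for 2 members and higher calls for 0, against 5.34% of all genes lower and 10.5% higher. The medians were -0.22 over members and 0.17 over all genes. For the length trend, the omission and the rescaling that follow, the share of all genes called was not counted. With the length trend removed, 9 members were called and the median was -0.50; without untreated clone 4, 6 were called and it was -0.35. Median-of-ratios rescaling gave 5 calls and a median of -0.43. Rplp0 had 298 and 186 RPKM untreated and 93.9 RPKM treated (-1.32 ± 0.23, limma adjusted p = 7.97e-04). Rpl36a had 191 and 242 RPKM untreated and 92.6 RPKM treated (-1.21 ± 0.31, limma adjusted p = 0.0125). Both treated values lay below both untreated ones. With the clone block 3 members were called lower and 2 higher, against 22.8% of all genes in either direction.

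Set against the wild-type response to Adeno-Cre, 4 members were called lower in these cells, against 3.87% of all genes in either direction. The net differences were -1.64 ± 0.30 for Rplp0 (limma adjusted p = 0.00364), -1.10 ± 0.27 for Rps10 (0.0233), -1.62 ± 0.40 for Rpl12 (0.0261) and -0.90 ± 0.24 for Rpl24 (0.0436). Rpl12 shows the pattern: it had 175 and 154 RPKM untreated and 93.9 RPKM treated, whereas in wild-type cells it went from 5.35 and 5.79 to 10.7 and 10.5 RPKM. Its untreated levels thus differed by more than 10-fold between the cell sets, and so did those of Rpl24, at 43.8 to 50.8 RPKM in the untreated double-floxed libraries and 0.07 to 0.13 RPKM in the untreated wild-type ones. The median net difference of the members was -0.72, against 0.11 over all genes and -0.23 over other genes under 1000 bases. With the block 10 members were called lower, against 12.0% of all genes. With the length trend removed the calls were 2, and leaving out single libraries gave 1 to 9: 1 without either untreated wild-type library, the clone 2 Adeno-Cre wild-type library or untreated double-floxed clone 3, and 9 without untreated double-floxed clone 4. The Ctcf and the double-floxed net comparisons share the 4 wild-type libraries.

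A separate table, normalized apart from the larger one, held 2 further Adeno-Cre libraries of double-floxed clone 3 with like labels. Their member sums were 33660 and 23374 RPKM. Rplp1 had 5231 and 3529 RPKM in them, Rpl41 2363 and 1016 RPKM and Rplp0 548 and 774 RPKM, a gap of more than 2-fold for Rpl41. The name of that table mentions serum and the labels of these 2 libraries do not, so whether both were treated alike is not known. With no untreated library in that table, no comparison was made.

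Other genes of the translation machinery were counted from lists. Of 21 translation factors and related TOP mRNAs, 0 rose and 1 fell in treated Smc3 cells (Eif4b, an initiation factor, from 97.2 to 78.5 RPKM), with a median of -0.22. In Wapl cells 0 were called, with a median of -0.33. After Adeno-Cre 1 rose in wild-type cells (Fau, which encodes a ubiquitin-like protein fused to a small-subunit protein, from 8.05 to 21.8 RPKM) and 1 in Ctcf cells (Eif3l), with medians of 0.25 and 0.27, and 0 were called in the double-floxed cells (median -0.25). Of 40 ribosome biogenesis genes, 3 fell in Smc3 cells (Ddx21, Nop2 and Polr1a; median -0.17), 1 fell in Wapl cells (Nob1; median -0.22), 2 rose in wild-type cells with Adeno-Cre (Brix1 and Rrp9; median 0.30), 1 rose in Ctcf cells (Bop1; median 0.26) and 5 rose in the double-floxed cells (median 0.31). Of 15 regulators of ribosome synthesis, 1 fell in Smc3 cells: Myc, a transcription factor that drives ribosome production, went from a mean of 38.1 to 5.44 RPKM (-2.91 ± 0.47, limma adjusted p = 3.95e-04). In the double-floxed cells 1 regulator rose, Rptor, a subunit of the mTOR complex that acts on TOP mRNAs (from 14.2 to 20.3 RPKM). The difference of Myc in Wapl cells was -1.71 ± 0.66 (limma adjusted p = 0.212) and in Cre-ER cells 0.02.

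Mitochondrial ribosomal proteins, which belong to a different ribosome, were counted for contrast. Of 75 tested, 1 rose and 0 fell in Smc3 cells (median 0.07), 0 were called in Wapl cells (median -0.09), 9 rose in wild-type cells with Adeno-Cre (median 0.52), and 5 rose and 1 fell in Ctcf cells (median 0.35). In the double-floxed cells 7 rose and 1 fell (median 0.36).

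Markers of other cells and states moved in the same libraries. The 17 macrophage markers found in the table (of 18 listed) summed to 64.9 to 2145 RPKM in untreated and 30.1 to 427 RPKM in treated Smc3 libraries, and to 4197 to 5300 and 1080 to 3301 RPKM in Wapl libraries, with 0 of 17 tested called in either (medians -1.61 and -1.18). Of these 17, Aif1 and Cd53 were at 0 in 2 libraries each and Ptprc in 1, and the other 14 were above 0 in every library. The 11 proliferation markers summed to 125 to 142 RPKM in untreated and 46.7 to 102 RPKM in treated Wapl libraries (0 of 10 called, median -0.62), and to 63.4 to 91.9 and 44.7 to 76.0 RPKM in Smc3 libraries (2 of 10 lower). In Smc3 cells 5 of 11 tested muscle markers rose, 2 of 5 endothelial markers fell, and 0 of 12 p53 targets were called. In the double-floxed cells 11 of 15 interferon genes rose and 3 of 11 fibroblast markers fell. The part of these shifts in the ribosomal protein values was not tested, and in bulk RNA fewer cells of a type and less RNA per cell cannot be told apart.

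Nascent RNA gave a more even picture of the members than the RNA levels did. GRO-seq values are deposited as TPM, and their steps matched reads over the whole gene span, introns included. The labels tie 4 libraries to the wild-type table (untreated and Adeno-Cre wild type, untreated and hydroxytamoxifen-treated Cre-ER), and which of them its single column pools is not given in the sources used here. In that column 85 of 86 members were above 0, the median was 62.6 TPM against 2.40 TPM over all genes above 0, and the members made up 3.89% of the total. For comparison, RNA was averaged over the 4 untreated wild-type and Cre-ER libraries, which differ widely for Rpl41 and a few others. The 13 canonical members whose RNA was below 1 RPKM in that mean had 24.1 to 140.5 TPM of nascent RNA (median 51.1), within the 19.9 to 512.8 TPM (median 69.6) of the other 64. Rps29 had 37.6 TPM, Rpl5 45.5 TPM, Rpl26 76.3 TPM and Rpl36a 129 TPM, where their RNA was at 0.24, 0.049, 0.0 and 0.21 RPKM. Rplp1, with the highest RNA, had 63.0 TPM. Spearman's correlation across the 86 genes between this mean RNA and nascent RNA was 0.21; genes are not independent replicates, and both scales depend on gene length.

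**Figure D4:**
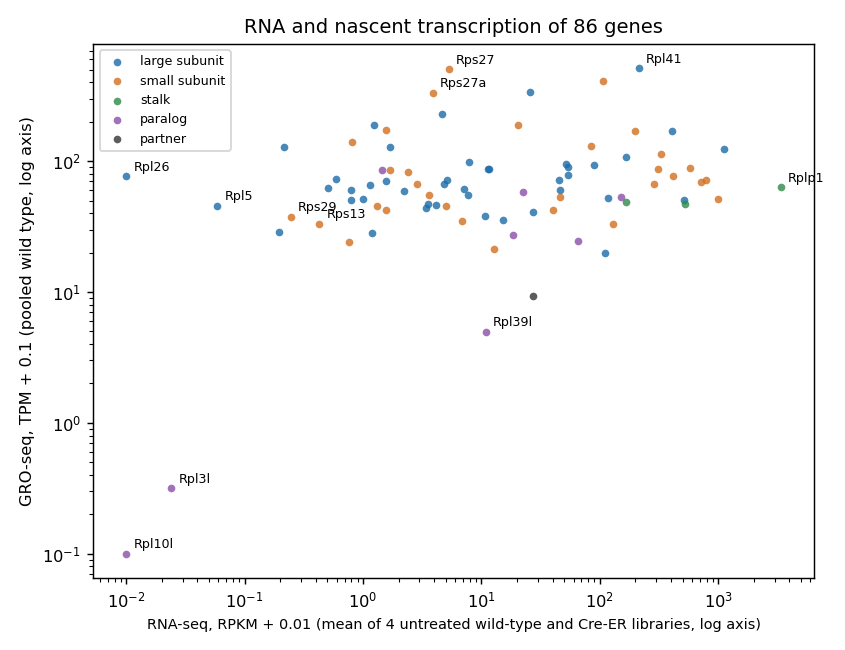
Nascent RNA in the pooled wild-type column (GRO-seq, TPM + 0.1) against RNA (RPKM + 0.01, mean of the 4 untreated wild-type and Cre-ER libraries) for each of the 86 ribosomal protein genes, coloured by role, both axes on a log scale. Apart from the paralogs Rpl3l and Rpl10l, which are low on both axes, members below 1 RPKM lie within the nascent range of the others.

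The run-on data of the double-floxed cells addressed how nascent RNA responds to the deletion and to a block of elongation. Each column is a share of a fixed total and stands for 2 pooled libraries (untreated and Adeno-Cre) or 1 library (DRB and washout), so there is no replicate check and no test. Fold changes were computed as the log2 of TPM + 0.5 and counted past 2-fold. The members' share of all TPM was 2.05% in untreated cells, 3.40% after Adeno-Cre, 9.41% with DRB and 6.37% after washout. In the DRB library an estimated 38177 of 1.29 M reads in gene spans fell in members, or 2.96% (95% exact interval 2.927 to 2.985, counting error only). After washout it was 108380 of 8.35 M reads, or 1.3% (1.291 to 1.306). Shares of reads are smaller than shares of TPM because the member genes are short, with a median span of 3179 bases against 19976 for other genes.

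After Adeno-Cre, 19 of 86 members were more than 2-fold higher and 4 lower than in untreated cells, against 5.23% and 27.8% of the 16320 genes compared. The medians were 0.38 over members and -0.64 over all genes. Rps4y2 went from 6.95 to 38.7 TPM (log2 ratio 2.40), Rpl41 from 121 to 493 TPM (2.03) and Rps27a, which encodes ubiquitin fused to a small-subunit protein, from 81.8 to 307 TPM (1.90). Those with the lowest ratios were Rps4x, from 29.1 to 5.25 TPM (-2.36), Rps19, from 37.99 to 13.52 TPM (-1.46), and Rpl38, from 34.5 to 13.9 TPM (-1.28). Rplp0, lower in the RNA of these cells, had 41.0 TPM untreated and 21.5 TPM after Adeno-Cre (-0.91), whereas Rpl36a had 37.99 and 90.75 TPM (1.25) and Rpl12 85.2 and 126 TPM (0.56). For Rpl36a and Rpl12 the RNA and run-on values thus differed in sign, but the labels give different clone numbers for the run-on and the RNA libraries. The median over all genes was also negative in run-on and positive in RNA. In the same columns 9 of 16 interferon genes were more than 2-fold higher (median 1.22) and 8 of 11 fibroblast markers lower (median -1.86); their part in the members' values was not tested. Other genes of up to 2 kb had a median of 0.07 and those over 100 kb -0.91. When columns were rescaled to the same median, 45 members were higher and 1 lower. Rescaling shifts every gene, and the share of all genes past 2-fold was not counted after it.

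With DRB, which blocks the release of paused polymerase, the members' share of nascent RNA was larger. Against Adeno-Cre alone, 56 of 86 were more than 2-fold higher and 7 lower, against 10.4% and 36.4% of all genes, with medians of 1.38 and -0.68. Other genes of up to 2 kb and of 2 to 5 kb had medians of 0.00, and 17.4% and 23.7% of them were more than 2-fold higher. Members of the same spans had medians of 1.57 and 1.36. A gene was compared if it had 1 TPM in any column, so the other genes are not matched to the members in level. After Adeno-Cre alone the members' median was 46.1 TPM, against 2.70 TPM over all genes above 0. The count past 2-fold was 65 with the trend over gene span removed. The highest ratio was that of Rpl34, from 17.0 to 786 TPM (log2 ratio 5.49), with 1946 reads in the DRB library (95% Poisson interval 1860.5 to 2034.4). Rpl7 went from 34.8 to 371 TPM (3.40; 808 reads) and Rpl22 from 9.39 to 89.9 TPM (3.19). The highest TPM with DRB were those of 4 members that were also among the 5 highest after Adeno-Cre alone: Rpl41 reached 1295 TPM, Rps27 1188 TPM, Rps27a 1152 TPM and Rps2 1069 TPM.

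Few members were lower with DRB. Rps12 went from 329 to 90.4 TPM (log2 ratio -1.86), and the tissue-restricted paralogs Rpl3l and Rpl10l were at 0 reads, from 2.60 and 1.26 TPM. Rpl12 went from 126 to 40.8 TPM (-1.62; 66 reads, 51.0 to 84.0). Rplp1, at 42.9 and 43.5 TPM, and Rps29, at 48.3 and 45.3 TPM, were nearly level. Other genes of translation stood on the same side in part: 36 of 76 mitochondrial ribosomal protein genes were more than 2-fold higher and 4 lower (median 0.97), 20 of 40 ribosome biogenesis genes were higher and 1 lower (1.03), and 7 of 21 translation factors were higher and 3 lower (0.62). Since each column has the same total, larger shares of short genes do not show that they were transcribed more.

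One day after DRB was removed, 1 member was more than 2-fold higher and 14 lower than with DRB, against 25.1% and 5.41% of all genes, with medians of -0.54 and 0.39. Rpl34 went to 161 TPM (log2 ratio -2.28), Rps19bp1 from 37.1 to 9.86 TPM (-1.86) and Rpl22 to 24.6 TPM (-1.85). The member past 2-fold higher was Rps4x, from 1.68 to 11.02 TPM (2.40). Its DRB value was near the floor, since 1 read per kilobase of gene span is 1.44 TPM in that library. Rpl39 went from 24.4 to 42.7 TPM (0.80) and Rps12 to 151 TPM (0.74). When the columns were rescaled to the same median, 55 members were lower, and the share of all genes was not counted after that shift.

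The washout library was also set against Adeno-Cre alone. Against Adeno-Cre, 40 members were more than 2-fold higher and 7 lower, where 5.09% and 11.6% of all genes were, with medians of 0.92 and -0.02. The log2 ratios were highest for Rpl34 (3.21), Rpl7 (2.32) and Rpl7a (1.97; from 24.8 to 98.6 TPM). Rpl12 was low (-1.96; 31.9 TPM, 217 reads). Rpl3l and Rpl10l had 1 and 0 reads after washout, so their ratios are set by the pseudocount. With the trend over gene span removed, 19 were higher and 9 lower. The washout comparisons share the DRB and Adeno-Cre columns with the comparison above.

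**Figure D5:**
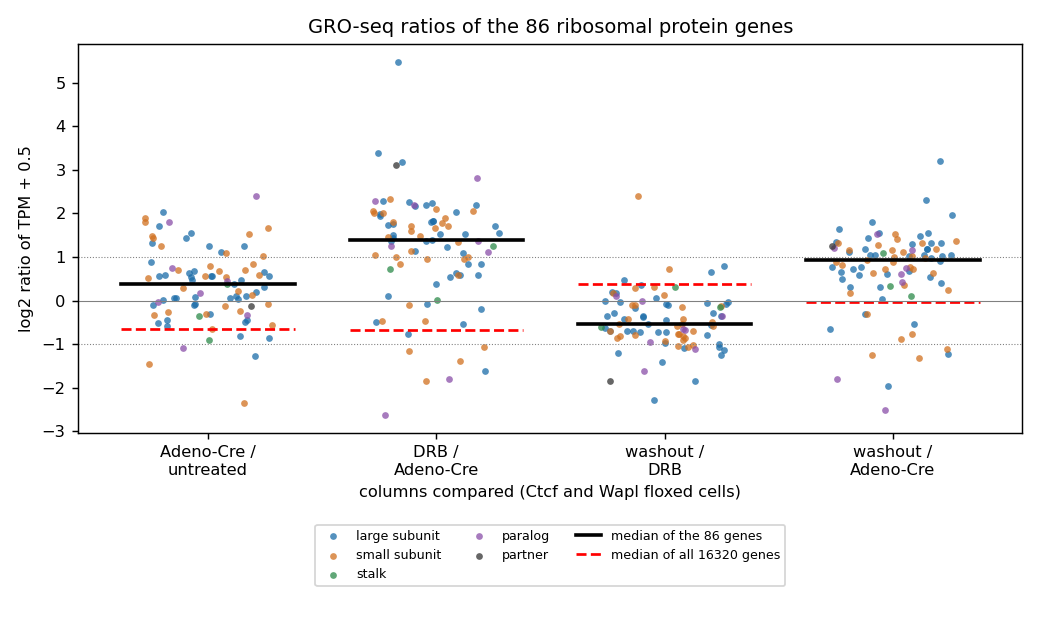
Log2 ratio of GRO-seq TPM + 0.5 for each ribosomal protein gene in 4 comparisons of Ctcf and Wapl floxed cells, coloured by role, with black lines for the median of the 86 genes and dashed red lines for the median of all 16320 genes. The members lie above the median of all genes with DRB (1.38 against -0.68) and below it for washout against DRB (-0.54 against 0.39).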

How the data were processed

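RNA-seq values were deposited by the authors as RPKM for 27 libraries in 1 table and 2 in another, and GRO-seq values as TPM, per the file headers. The submitters' processing notes name build mm9 and, without roles, HTSeq, bedtools, MACS 1.4.2, Bowtie 0.12.5, and TopHat in versions 1.4.1 and 1.3.1; they give neither strand use nor the treatment of multi-mapping reads. The DRB and washout columns summed to 100000, against 200000 for the pooled ones, and were doubled. RPKM were whole reads for 18155 of 18155 genes within 0.02 reads. For TPM times RefSeq gene span, 69.0% (DRB) and 72.9% (washout) of genes of 1 to 20 reads were whole within 0.05 reads; the depth of pooled columns is unknown.

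Tests covered the 12604 genes that reached 1 RPKM in 2 or more libraries, with limma 3.58.1 (R 4.3.3) on log2(RPKM + 1), which understates changes of low genes, in 1 model over 12 groups (15 residual degrees of freedom), with Benjamini-Hochberg adjustment and a threshold of 0.05. Differences between treatments were contrasts in that model. Treated and untreated libraries with the same clone in the labels were taken as pairs: their deviations correlated at 0.49 to 0.70 in Smc3, 0.68 in Ctcf, 0.47 in Wapl, 0.76 in wild-type and -0.20 in Cre-ER cells. The block model had 7 residual degrees of freedom. Tests were first run on simulated data. P-values without the block rest on the spread between clones within a group, pooled over the groups. Those with the block rest on the spread left after the level of each clone is taken out. Named genes were those called (or else the 2 with the smallest p), the highest and lowest levels, the largest run-on ratios and a fixed set of well-known members. The members and lists were chosen with earlier results of these data known. ChIP-seq (64 samples) was left out, and some single genes that the counts and sums include are not reported here. Columns of per-sample values left unused numbered 0.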

Additional observations from a re-analysis of the deposited data

Results flagged for a closer look

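In groups of 4, 7 of the 61 sets of values of named members held a library that stood apart from the other 3 by Dixon's criterion, where chance gives about 1 in 20. In untreated Smc3 clone 1 these were Rps15 (529.2 RPKM, others 234.7 to 262.1), Rps27l (289.3, others 38.2 to 71.4), Rps19bp1 (24.16, others 18.2 to 19.2) and Rps12 (2.537, others 1.265 to 1.397). That library has the fewest reads (8.5 M), and clone 1 is the one with both Smc3 alleles floxed. Its treated partner stood apart for Rps19 (37.45 RPKM, others 24.4 to 25.6). Untreated Smc3 clone 2 stood apart for Rpl34 (10.17 RPKM, others 8.13 to 8.43), and untreated clone 3 for Rplp1 (2144 RPKM, others 3375 to 3620).

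The response to Adeno-Cre differed between double-floxed and wild-type cells for 4 members past the limma threshold, with differences of -1.636 for Rplp0, -1.621 for Rpl12, -1.104 for Rps10 and -0.896 for Rpl24 on the log2 scale. That is 4 of 81 members, where 3.87% of all genes were called; 2 calls were left with the length trend removed (Rplp0 and Rpl12), and Rpl24 had 1 and 2 reads in the untreated wild-type libraries.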

How the results depend on the processing

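With the clone as a replicate block, members called came to 13 for Ctcf, 28 for Smc3, 24 for Wapl, 5 for Ctcf and Wapl, 33 for wild-type Adeno-Cre and 0 for Cre-ER; the net comparisons gave 2 (Ctcf), 12 (Smc3), 3 (Wapl) and 10 (Ctcf and Wapl). Removing the length trend gave 0, 17, 0, 9 and 0 for the first 5 and 0, 2, 0 and 2 net, and reversed the wild-type median to -0.04 (-0.04 with the block too). The following settings were chosen after seeing the data. Block and length trend together gave 4, 36, 23 and 10 for the first 4 and 1, 14 and 3 net for Ctcf, Smc3 and Wapl; crossing the Cre-ER clones in the block gave 6 (Smc3) and 1 (Wapl) net; leaving out Smc3 clone 1 gave 4, or 21 with the block and 8 net with the block. A pseudocount of 0.1 gave 0 for Ctcf, 1 for Ctcf and Wapl, 1 for wild-type and 2 for Ctcf and Wapl net. Without the filter there were 2 for Ctcf and 1 for Ctcf net. Median-of-ratios rescaling gave 5 for Ctcf and Wapl and 1 for wild-type. Leaving out 1 library gave 0 to 3 (Ctcf), 3 to 11 (Smc3), 0 to 0 (Wapl), 2 to 6 (Ctcf and Wapl), 0 to 4 (wild-type), and net 0 to 1 (Smc3) and 1 to 9 (Ctcf and Wapl). GRO-seq counts past 2-fold were 46 (Adeno-Cre against untreated) and 56 (washout against DRB) with columns rescaled to the same median, and 28 (washout against Adeno-Cre) with the gene span trend removed. Of 216 values of the 16 named calls, 139 stayed past the threshold, 77 kept their sign only and 0 reversed. The share of all genes called or past 2-fold was counted only with the main settings and, for RNA, with the clone block. Member counts under the other settings therefore cannot be read against all genes. The cause was not tested where no value shows it. Depth limits the Rpl24 call, which rests on 1 and 2 reads in the untreated wild-type libraries.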

Other observations

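A few members separated clones floxed for the same gene, in untreated and treated libraries alike. They were picked after their values were seen. Rps4x, the X-linked small-subunit gene, had 8.55 and 12.2 RPKM in untreated Smc3 clones 1 and 3 and 0.82 and 1.01 RPKM in clones 2 and 4. After hydroxytamoxifen it had 6.31 and 6.72 RPKM in clones 1 and 3 and 0.69 and 2.08 RPKM in clones 2 and 4. Rpl7 had 38.2 and 43.6 RPKM in untreated clones 1 and 3 and 8.87 and 12.3 RPKM in clones 2 and 4, with 27.8, 32.6, 12.4 and 18.6 RPKM in their treated partners. Rps3a had 3.91 and 4.43 RPKM in untreated clones 1 and 3 and 0.07 and 0.76 RPKM in clones 2 and 4. The Wapl clones differed in the same genes: Rps4x had 12.8 and 1.94 RPKM and Rpl7 44.3 and 15.1 RPKM in untreated clones 1 and 2. The laboratory numbers in the labels are lower for Smc3 clones 1 and 3 and Wapl clone 1. They are higher for Smc3 clones 2 and 4 and Wapl clone 2. Clone and the run of these numbers therefore cannot be told apart.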
